A study of Mus musculus with 4 samples.

Results

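The cytosolic ribosomal proteins are the protein building blocks of the ribosomes that translate nuclear genes. The rule selects protein-coding genes in the deposited table whose symbol is Rpl, Rps or Rplp followed by a number and up to a letter and a digit, together with Rpsa. This gave 82 of 14934 genes, of which 47 encode proteins of the large subunit (Rpl genes), 32 of the small subunit (Rps genes and Rpsa) and 3 the P stalk (Rplp0, Rplp1 and Rplp2). The study sorted CD8 T cells of mouse hepatocellular carcinoma by surface JAML with flow cytometry, and compared the transcriptomes of JAML-positive cells with those of JAML-negative cells. JAML is the junctional adhesion molecule-like protein, a cell surface receptor of T cells and other leukocytes. Both groups are labelled wild type, with no treatment, age or strain given in the labels, and each has replicate libraries A and B. Whether A and B come from different animals, pools or sorts is not stated, and p-values therefore reflect only how far these libraries differ, which may be technical. JAML-positive A and B are kept apart throughout, because their shares of ribosomal protein counts differ more than those of the JAML-negative pair.

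A ribosome joins a small subunit, which reads the messenger RNA, to a large subunit, which links amino acids and releases the chain through an exit tunnel, and ribosomal proteins are needed in nearly equal numbers. Their messenger RNAs are short, abundant and stable. In mammals they typically begin with a run of pyrimidines at the 5′ end, the terminal oligopyrimidine (TOP) motif, through which the kinase mTOR and the RNA-binding protein LARP1 control translation and stability of the whole class. T cells enlarge their ribosome pool when they are activated and grow.

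The start of the gene is shown first for 8 members described below, taken from those with a pyrimidine run near it. The RefSeq (GRCm38.p6) start windows were searched on the sense strand for a run of at least 7 C or T letters that begins with C, within 25 bases on either side of the annotated start. Each line gives 30 bases, 5′ to 3′, with the run in capitals.
Rpl35 (chr2:39005115-39005144, minus strand): gccccgCCCTTTCCTCTTTCTCTCgaacca
Rpl14 (chr9:120571501-120571530, plus strand): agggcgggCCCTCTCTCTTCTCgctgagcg
Rpl4 (chr9:64173362-64173391, plus strand): tgacaagtCTTTCCTTTTCCTgtgggagca
Rpl22l1 (chr3:28805500-28805529, plus strand): gcaagcccgttCTCTTCCCacggctgcagc
Rplp2 (chr7:141447637-141447666, plus strand): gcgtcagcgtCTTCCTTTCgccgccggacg
Rps6 (chr4:86857349-86857378, minus strand): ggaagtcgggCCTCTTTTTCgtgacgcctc
Rps26 (chr10:128626484-128626513, minus strand): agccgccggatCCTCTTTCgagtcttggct
Rps27 (chr3:90213631-90213660, minus strand): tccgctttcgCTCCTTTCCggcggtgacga
The longest of these 8 runs stands in Rpl35, with 18 pyrimidines. Relative to the annotated start, the first base of the run lies between -17 (Rpl4) and 4 (Rps26). The Rpl4 run, of 13 bases, ends before that start. Such a run was found in 36 of the 61 members that have a RefSeq start window (59.0%). Among all 27025 genes with a window, 6929 (25.6%) hold one, and among the tested genes outside the family 26.6%. A match describes the letters near an annotated start and is neither a measured start site nor a cause of any difference between libraries.

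The libraries held 27717149 and 30569728 counts for JAML-positive A and B, and 27819178 and 27530187 for JAML-negative A and B. Values per gene are counts per 1000000 (CPM) on the TMM scale, in which edgeR adjusts the library sizes. T cell markers were at similar levels in all 4 libraries, with a summed 3191 and 2953 CPM of the library total for 5 genes in JAML-positive A and B, against 2900.3 and 2895 CPM in JAML-negative A and B. Jaml itself, whose transcript is a check on the surface sort, had 138 and 147 CPM in JAML-positive A and B, against 131 and 117 CPM in JAML-negative A and B. The log2 fold change of Jaml came to 0.20 (SE 0.22, with an edgeR adjusted p of 0.989), so the groups lay apart by little and the difference did not pass the test.

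Ribosomal protein genes took 12.5% of all counts in JAML-positive A and 7.71% in JAML-positive B, against 8.62% and 8.52% in JAML-negative A and B. Counting error is small at this depth, with 95% Wilson intervals of at most ± 0.0123 points, which cover counting error only because the reads carry no molecular identifiers. JAML-positive A stood at 1.46 times the JAML-negative mean and JAML-positive B at 0.90 times that mean. The groups therefore overlapped, with JAML-positive cells at 10.1% ± 3.41 and JAML-negative cells at 8.57% ± 0.0713 (SD, n = 2 each). The difference of 1.55 percentage points had an exact two-sided permutation p = 1.0, in a design where 2 against 2 libraries can give no p below 0.3333. In sorted bulk samples, a larger share of a cell type rich in these transcripts and more such RNA per cell cannot be told apart.

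**Figure D1:**
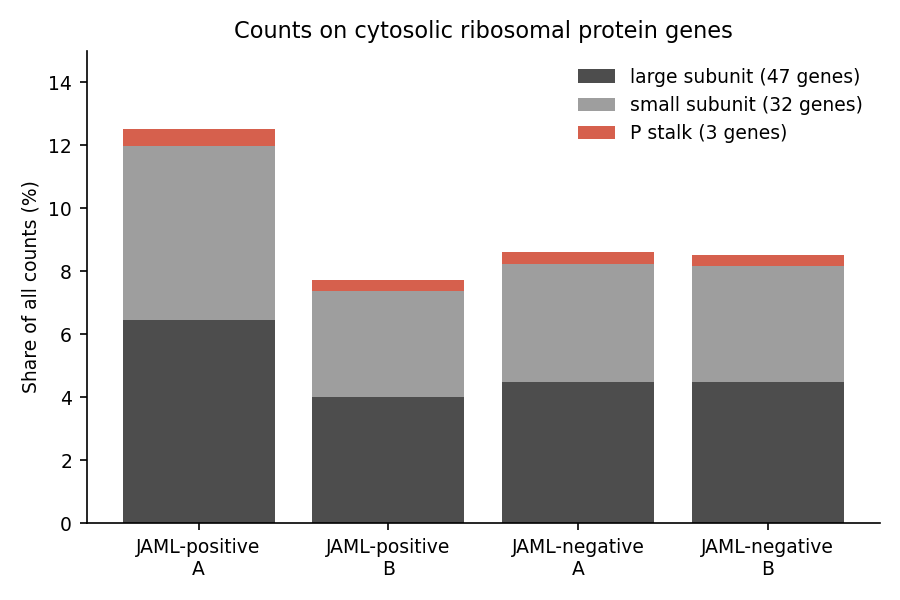
Share of all counts in each library (%, stacked bars) on the 47 large subunit, 32 small subunit and 3 P stalk genes. JAML-positive A reaches 12.5% and JAML-positive B 7.71%, on either side of the JAML-negative libraries at 8.62% and 8.52%.

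The proportions within the family were almost constant. Large subunit genes held 51.5% and 52.0% of the family's counts in JAML-positive A and B, against 51.8% and 52.6% in JAML-negative A and B. Small subunit genes held 44.0% and 43.7%, against 43.8% and 43.2%. The P stalk genes held 4.41% and 4.26% in the JAML-positive libraries, against 4.39% and 4.24% in the JAML-negative ones. Ranks of the 82 genes by CPM were also alike, with a Spearman rho of 0.976 to 0.983 over the 6 pairs of libraries, given as a description since the genes share each library.

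All 82 genes passed the filter on low counts and were tested together with the other genes, 11563 in all. None passed an adjusted p of 0.05 in edgeR's quasi-likelihood test, in which 0.0% of all tested genes passed in either direction, and none had an unadjusted p under 0.05, against 4.28% of tested genes higher and 2.76% lower. The smallest adjusted p among the members was 0.712. No member passed with limma-voom (0.0% of tested genes) or with DESeq2, which called 3.26% of all 14934 genes higher and 2.33% lower. At an unadjusted p under 0.05, DESeq2 had 4 members higher (8.29% of its genes) and limma-voom had 1 (2.86% of tested genes). By sign alone, 80 of the 82 genes had a higher fitted value in JAML-positive cells, against 50.7% of all tested genes, with a median log2 fold change of 0.29 against 0.01 over all tested genes, a direction that turned without JAML-positive A and after removal of length and GC trends (both given below). The exceptions were Rps7, at -0.01, and Rpl32l, a sparsely counted gene at -0.61 with 22 and 12 counts in JAML-positive A and B, against 28 and 24 in JAML-negative A and B. The medians were 0.28 for large subunit, 0.30 for small subunit and 0.30 for P stalk genes, and without JAML-positive A they were -0.19, -0.17 and -0.32.

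The direction rested on a single library. JAML-positive A was the highest of the 4 libraries for 79 of the 82 genes (27.1% of all tested genes), and its median log2 difference from the JAML-negative mean was 0.67. JAML-positive B was the lowest for 63 (22.6% of all tested genes), with a median of -0.18. JAML-positive A exceeded JAML-positive B for 81 genes (49.6% of all tested genes), with a median difference of 0.86. The JAML-negative pair was balanced, with library A above library B for 40 genes (49.7% of all tested genes) and a median of -0.02.

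Without JAML-positive A the median log2 fold change was -0.17, only 12 of 82 genes had a higher value in JAML-positive cells (48.7% of tested genes in that fit), and 15 had an unadjusted p under 0.05 in the lower direction (2.09% of tested genes). Without JAML-positive B the median was 0.66, with 81 genes higher (49.1% of tested genes) and 76 of them at an unadjusted p under 0.05 (2.8% of tested genes). In neither fit did a member pass an adjusted p of 0.05 (0.0% of tested genes passed in either direction), and the smallest was 0.518 without JAML-positive B and 0.877 without JAML-positive A. Each of these fits compares a lone JAML-positive library, assumed to vary like the other group, with the JAML-negative pair. The 6 genes that stayed above an unadjusted p of 0.05 without JAML-positive B were Rpl32l, Rpl6l, Rpl7l1, Rps27l, Rps28 and Rps7, listed after their values were seen.

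**Figure D2:**
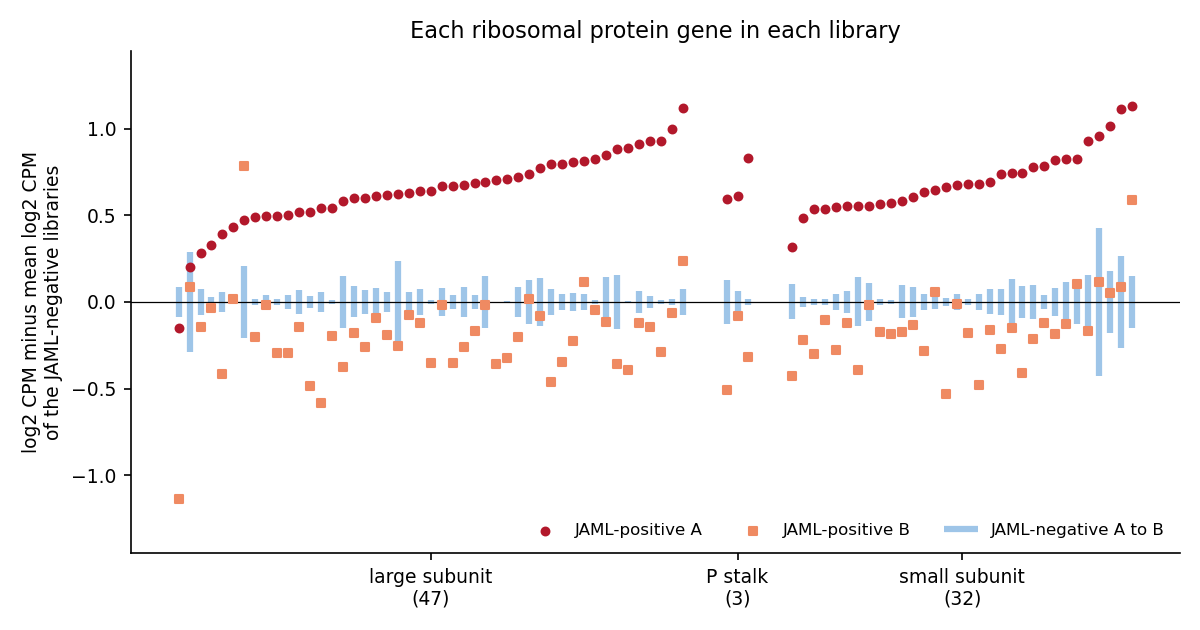
Each of the 82 genes in each library, as log2 CPM minus the mean log2 CPM of the JAML-negative libraries, ordered within large subunit, P stalk and small subunit by JAML-positive A. Circles are JAML-positive A (median 0.67), squares JAML-positive B (median -0.18), and vertical bars span the JAML-negative libraries.

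Gene by gene, the shift of JAML-positive A was broadly shared. The median absolute deviation of single genes around the pair's median log2 difference was 0.15 for JAML-positive A against B, 0.14 and 0.13 for JAML-positive A against JAML-negative A and B, and 0.14 for the JAML-negative pair itself. So the scatter between genes was similar in pairs with a large common shift and in the pair with almost none. Scaling each library to its own family total centres the members by construction, so the 44 of 82 genes with a higher value in JAML-positive cells (39.6% of all tested genes) and the median log2 fold change of 0.01 follow from the scaling. Around that centre the members ranged from -0.93 to 0.63.

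Levels per kilobase of transcript ranged widely within the family, with a lowest, median and highest mean of 1.93, 1295 and 3597 CPM per kb over the 4 libraries. Rps3a1 (3127 CPM per kb), Rpl13a (2716) and Rps4x (2665) were among the 5 highest. At the low end were Rpl32l (1.93 CPM per kb), Rpl7l1 (28.7), Rps27l (75.8) and Rpl6l (102), which are paralogues or copies of Rpl32, Rpl7, Rps27 and Rpl6. Rps15a and Rps20 also appear low (231 and 237 CPM per kb), for which the annotated transcripts used are long (5130 and 3706 nt, against a family median of 767.5 nt).

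Among large subunit proteins, Rpl35 had the smallest p of the family. Rpl35 sits beside the mouth of the exit tunnel (Entrez 66489, chr2:39001581-39005131), and had 1192 and 648 CPM in JAML-positive A and B, against 521 and 579 CPM in JAML-negative A and B. The JAML-positive pair lay wholly above the JAML-negative pair, and the log2 fold change came to 0.74 (SE 0.31, with an edgeR adjusted p of 0.712) with a 95% interval of -0.011 to 1.496. It was 0.24 without JAML-positive A, 1.11 without JAML-positive B and 0.43 after removal of length and GC trends. The run of pyrimidines at its start is the longest one printed above. Its exons overlap those of Wdr38 on the opposite strand by 0.3% of bases. However, 95.1% of its 50-base windows recur in annotated transcripts of other genes, and Wdr38 shares the most. The origin of Rpl35 reads is therefore uncertain.

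Rpl14, another large subunit protein, had 1247 and 767 CPM in JAML-positive A and B, against 686 and 734 CPM in JAML-negative A and B. Its groups did not overlap, and the log2 fold change came to 0.50 (SE 0.26, with an edgeR adjusted p of 0.773), but to 0.12 without JAML-positive A, 0.81 without JAML-positive B and 0.13 after removal of length and GC trends. Rpl41, the very short peptide that bridges the subunits, had 2086 and 999.9 CPM in JAML-positive A and B, against 1032 and 1055 CPM in JAML-negative A and B. JAML-positive A was the high library for Rpl41, and JAML-positive B lay just below both JAML-negative libraries, with a log2 fold change of 0.56 (SE 0.35, with an edgeR adjusted p of 0.831). Rpl10, which completes the large subunit late in its maturation and is mutated in some human T cell leukaemias, had 1667 and 1014 CPM in JAML-positive A and B, against 1093 and 916 CPM in JAML-negative A and B. JAML-positive B lay between the JAML-negative libraries, and the log2 fold change came to 0.42 (SE 0.27, with an edgeR adjusted p of 0.857). For Rpl10 it was 0.02 without JAML-positive A, 0.72 without JAML-positive B and 0.02 after removal of length and GC trends.

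Rpl4, Rpl3 and Rpl13 were among the 5 members with the smallest difference within the JAML-positive pair. Rpl4, whose loop lines the exit tunnel, drew the most counts of the family, with 4312 and 3359 CPM in JAML-positive A and B, against 3508 and 3366 CPM in JAML-negative A and B. Rpl3, which lies next to the peptidyl transferase centre, had 3067 and 2282 CPM in the JAML-positive libraries, against 2390.4 and 2658 CPM in the JAML-negative ones. For both genes JAML-positive A was highest. The other 3 libraries were close together for Rpl4, but ran from 2282 to 2658 CPM for Rpl3. The log2 fold changes were 0.16 (SE 0.19) for Rpl4 and 0.08 (SE 0.20) for Rpl3. Rpl13, a large subunit protein, had 1126 and 847 CPM in the JAML-positive libraries, against 841 and 831 CPM in the JAML-negative ones, and its groups did not overlap, although JAML-positive B exceeded JAML-negative A by little. The log2 fold change of Rpl13 was 0.24 with all libraries, 0.02 without JAML-positive A and 0.42 without JAML-positive B.

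Rpl36, Rpl37a, Rpl39, Rpl29 and Rps21 lay at the other end, with the largest excess of JAML-positive A over JAML-positive B among the members with at least 10 CPM. Rpl36, a small protein of the large subunit, had 454 and 187 CPM in JAML-positive A and B, against 247 and 244 CPM in JAML-negative A and B, a difference of 1.28 on the log2 scale within the JAML-positive pair. Rpl37a, a zinc-binding protein, had 1364 and 570.1 CPM in the JAML-positive libraries, against 748 and 827 CPM in the JAML-negative ones. Rpl39, which lines the narrow part of the exit tunnel, had 738 and 312 CPM in the JAML-positive libraries, against 359 and 446 CPM in the JAML-negative ones. In each of these JAML-positive A was the highest library and JAML-positive B the lowest. Rpl29 had 810.1 and 348 CPM in the JAML-positive libraries, against 427 and 422 CPM in the JAML-negative ones, and Rps21, a small subunit protein, had 567 and 247 CPM in the JAML-positive libraries, against 352 and 362 CPM in the JAML-negative ones. The log2 fold changes of these 5 genes lay between 0.19 (Rps21) and 0.45 (Rpl29), with SE of 0.38 to 0.41.

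Several large subunit proteins have roles outside translation. Rpl5 and Rpl11, which bind the smallest ribosomal RNA of the large subunit and can hold back the p53 ligase Mdm2, had the same order of libraries. Rpl5 had 3322 and 2055 CPM in JAML-positive A and B, against 2391 and 2337 CPM in JAML-negative A and B, and Rpl11 had 1699.9 and 835 CPM in the JAML-positive libraries, against 1097 and 1039 CPM in the JAML-negative ones. Rpl23, also a Mdm2 binder, had 1553 and 797 CPM in the JAML-positive libraries, against 782 and 954 CPM in the JAML-negative ones. JAML-positive A was highest for all 3, while JAML-positive B was lowest for Rpl5 and Rpl11 and lay between the JAML-negative libraries for Rpl23. Rpl13a, which in human cells leaves the ribosome after interferon-gamma to silence inflammatory messages, had 4081 and 2054 CPM in the JAML-positive libraries, against 2638 and 2601 CPM in the JAML-negative ones. The log2 fold change of Rpl13a was 0.23 (SE 0.33, with an edgeR adjusted p of 0.9996).

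The P stalk recruits elongation factors to the large subunit. Rplp0, its base, had 3489 and 2159 CPM in JAML-positive A and B, against 2383 and 2191 CPM in JAML-negative A and B. Rplp1, which pairs with Rplp2 on that base, had 1417 and 638 CPM in the JAML-positive libraries, against 806 and 786 CPM in the JAML-negative ones. Rplp2 had 884 and 411 CPM in the JAML-positive libraries, against 536 and 638 CPM in the JAML-negative ones. All 3 genes were highest in JAML-positive A and lowest in JAML-positive B. Their log2 fold changes were 0.30 (SE 0.26) for Rplp0, 0.37 (SE 0.37) for Rplp1 and 0.14 (SE 0.36) for Rplp2.

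Among small subunit proteins were 5 of the 10 members with the smallest p. Rps26, which contacts the messenger RNA at the exit channel, had 1987 and 1203 CPM in JAML-positive A and B, against 1223 and 1028 CPM in JAML-negative A and B. Rps12, at the beak of the small subunit, had 691 and 355 CPM in the JAML-positive libraries, against 302 and 387 CPM in the JAML-negative ones. For Rps26 JAML-positive B lay between the JAML-negative libraries, as it did for Rps12, and the log2 fold changes were 0.50 (SE 0.27) for Rps26 and 0.60 (SE 0.34) for Rps12. Without JAML-positive A they were 0.10 for Rps26 and 0.05 for Rps12, without JAML-positive B 0.81 and 0.997, and after removal of length and GC trends 0.11 and 0.20. Rps27a, made as a fusion with ubiquitin, had 1691 and 829 CPM in JAML-positive A and B, against 649 and 941 CPM in JAML-negative A and B. JAML-negative A and B differed more for this gene than for most members, by -0.54 on the log2 scale, and the log2 fold change came to 0.66 (SE 0.37, with an edgeR adjusted p of 0.808). For Rps27a it was 0.06 without JAML-positive A, 1.08 without JAML-positive B, 0.42 without JAML-negative A, 0.96 without JAML-negative B and 0.25 after removal of length and GC trends.

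Rps6, the substrate of the S6 kinases that act below mTOR, had 2884 and 1773 CPM in JAML-positive A and B, against 2105 and 2021 CPM in JAML-negative A and B. JAML-positive B was lowest, and the log2 fold change came to 0.17 (SE 0.26, with an edgeR adjusted p of 0.9996). Rps19, the gene most often mutated in human Diamond-Blackfan anaemia, had 842 and 376 CPM in the JAML-positive libraries, against 542 and 508 CPM in the JAML-negative ones. Rpsa, which also serves as a laminin receptor, had 4298 and 2421 CPM in the JAML-positive libraries, against 2845 and 3027 CPM in the JAML-negative ones. Rps19 and Rpsa again had JAML-positive A highest and JAML-positive B lowest. Rps3a1 had 4028 and 2700.4 CPM in the JAML-positive libraries, against 2952 and 2541 CPM in the JAML-negative ones, and the X-linked Rps4x had 3471 and 2181 CPM in the JAML-positive libraries, against 2479 and 2262 CPM in the JAML-negative ones, with log2 fold changes of 0.29 (SE 0.24) and 0.25 (SE 0.25).

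Some ribosomal proteins have a paralogue that can take their place, and in mice Rpl22 is required for the development of alpha-beta T cells. Rpl22 had 736 and 353 CPM in JAML-positive A and B, against 453 and 452 CPM in JAML-negative A and B. Rpl22l1, its paralogue, had 352 and 194 CPM in the JAML-positive libraries, against 226 and 187 CPM in the JAML-negative ones. Per kilobase, Rpl22l1 stood at 41.0% and 47.2% of Rpl22 in JAML-positive A and B, against 42.9% and 35.6% in JAML-negative A and B, so the balance of the pair overlapped between the groups. No windows of 50 bases are shared between these transcripts, but 24.5% of those of Rpl22 and 65.6% of those of Rpl22l1 recur in other genes' annotated transcripts.

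Rps27l, the p53-inducible paralogue of Rps27, had 58.2 and 39.8 CPM in JAML-positive A and B, against 29.4 and 23.9 CPM in JAML-negative A and B. The JAML-positive pair lay wholly above the JAML-negative pair, and its log2 fold change of 0.88 (SE 0.42, with an edgeR adjusted p of 0.749) was the largest in the family. It was 0.58 without JAML-positive A and 0.52 after removal of length and GC trends. Rps27 had 1363 and 636 CPM in JAML-positive A and B, against 641 and 798 CPM in JAML-negative A and B. Rps27 was highest in JAML-positive A and lowest in JAML-positive B. Rps27l stood at 2.95% and 4.33% of Rps27 per kilobase in the JAML-positive libraries, against 3.17% and 2.07% in the JAML-negative ones, with overlapping groups. The counts of Rps27 are uncertain, because 98.6% of its windows recur in the copy Rps27rt.

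Rpl6l and Rpl7l1 departed from the common order. Rpl6l had 96.1 and 119 CPM in JAML-positive A and B, against 79.8 and 59.9 CPM in JAML-negative A and B, the only member with more CPM in JAML-positive B than in JAML-positive A, and its groups did not overlap. The log2 fold change of Rpl6l came to 0.62 (SE 0.30, with an edgeR adjusted p of 0.749), and to 0.77 without JAML-positive A, 0.44 without JAML-negative B and 0.33 after removal of length and GC trends. Rpl7l1 had 81.0 and 74.8 CPM in JAML-positive A and B, against 57.6 and 85.9 CPM in JAML-negative A and B, with JAML-negative B highest. Rpl7 had 2535 and 1778 CPM in the JAML-positive libraries, against 1852 and 1749.7 CPM in the JAML-negative ones, with JAML-positive A highest and JAML-positive B between the JAML-negative libraries. Rpl6l stood at 6.14% and 12.3% of Rpl6 per kilobase in the JAML-positive libraries, against 8.57% and 5.75% in the JAML-negative ones. Of the windows of Rpl6, 41.6% recur in Rpl6l. Of the windows of Rpl6l itself, 76.4% recur in annotated transcripts of other genes, and Rpl6 shares the most. The origin of Rpl6l reads is therefore uncertain. Rpl36a, which shares no such window with its paralogue Rpl36al, had 614 and 324 CPM in the JAML-positive libraries, against 351 and 395 CPM in the JAML-negative ones.

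**Figure D3:**
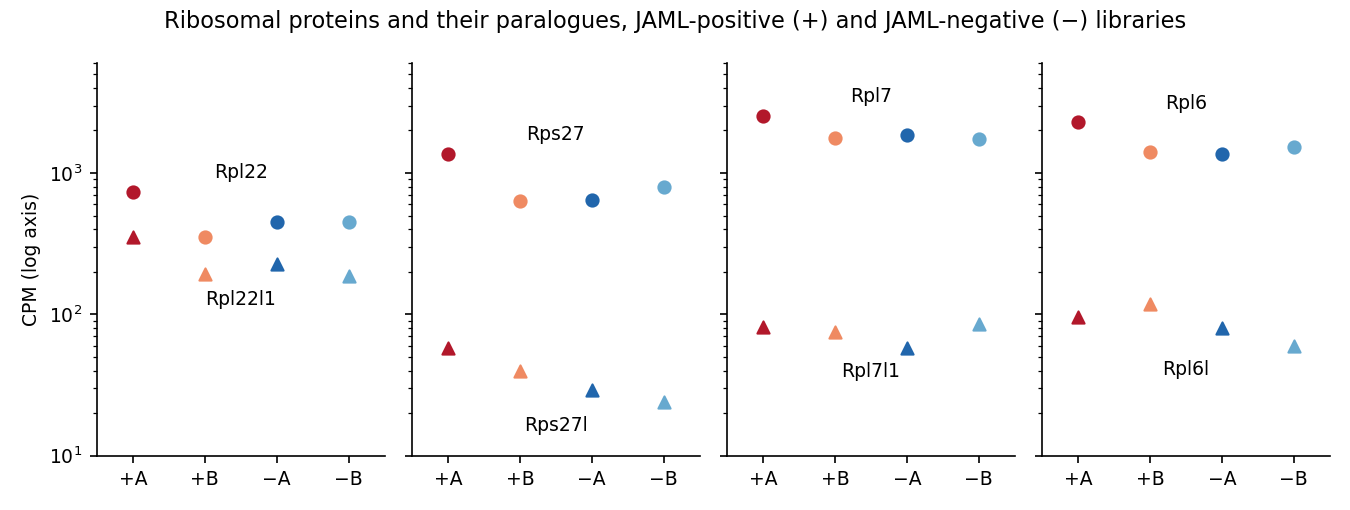
CPM (log axis) of Rpl22, Rps27, Rpl7 and Rpl6 (circles) and of their paralogues (triangles) in JAML-positive A and B (+A, +B) and JAML-negative A and B (−A, −B). The main genes are highest in JAML-positive A, Rps27l is higher in both JAML-positive libraries (58.2 and 39.8 CPM) than in the JAML-negative ones (29.4 and 23.9 CPM), and Rpl6l is highest in JAML-positive B (119 CPM).

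In all, the JAML-positive pair lay wholly above the JAML-negative pair for 6 members (20.3% of all tested genes), among them Rpl13, Rpl14, Rpl35, Rpl6l and Rps27l, and wholly below it for Rpl32l alone (18.2% of all tested genes). A share of 7.32% of the members above thus lies under the background.

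Ribosomal protein transcripts are short, with a median of 767.5 nt against 2793 nt over the tested genes that have an annotated length, and transcript length moved with the difference within the JAML-positive pair. Across the 82 members the Spearman rho of length with the log2 difference of JAML-positive A over JAML-positive B was -0.48, and over all tested genes with a length it was -0.24. These are descriptions across genes of the same libraries. Members under 600 nt (27 genes) had a median difference of 0.96, against 0.63 for the 13 other genes of that length with at least 100 CPM. Members of 600 to under 1000 nt (35 genes) had 0.76, against 0.55 for 54 others. Members of 1000 nt or more (20 genes) had 0.77, whereas 2069 other genes of that length had -0.07. Lengths are those of the annotated transcripts used and were not measured in these cells. The longest class includes Rps15a and Rps20, with annotated transcripts of 5130 and 3706 nt. The members' differences from genes of like length were not tested.

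**Figure D4:**
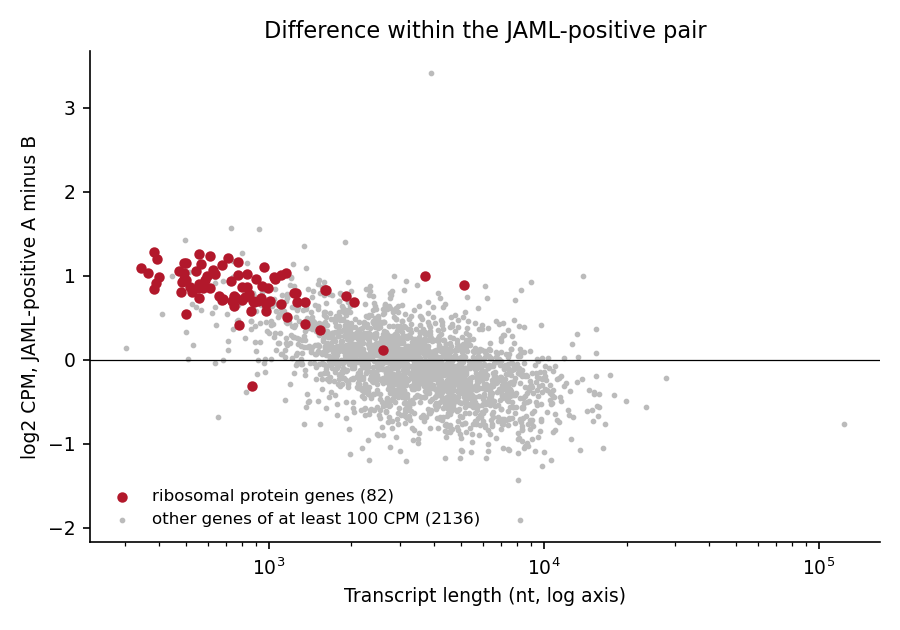
Log2 CPM of JAML-positive A minus JAML-positive B against annotated transcript length (nt, log axis) for the 82 ribosomal protein genes (dark red) and 2136 other genes of at least 100 CPM (grey). Shorter transcripts lie higher in both sets, and the members of 1000 nt or more have a median of 0.77 against -0.07 for other genes of that length. Lengths are annotated and not measured, and those members include Rps15a and Rps20, annotated at 5130 and 3706 nt.

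Once the trends of each library with length and GC content were removed, the median log2 fold change of the members was -0.07, and 33 of 82 genes had a higher value in JAML-positive cells (49.3% of tested genes in that fit). Other short transcripts were also highest in JAML-positive A, where genes under 1000 nt outside the family took 5.31% of counts, with 3.90% in JAML-positive B, against 3.90% and 3.98% in JAML-negative A and B. Malat1, a long nuclear RNA, took 0.0703% and 0.120%, against 0.146% and 0.142%, and was lowest in the library where the ribosomal proteins were highest. The part of what moves with Malat1 in the members' values was not tested.

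**Figure D5:**
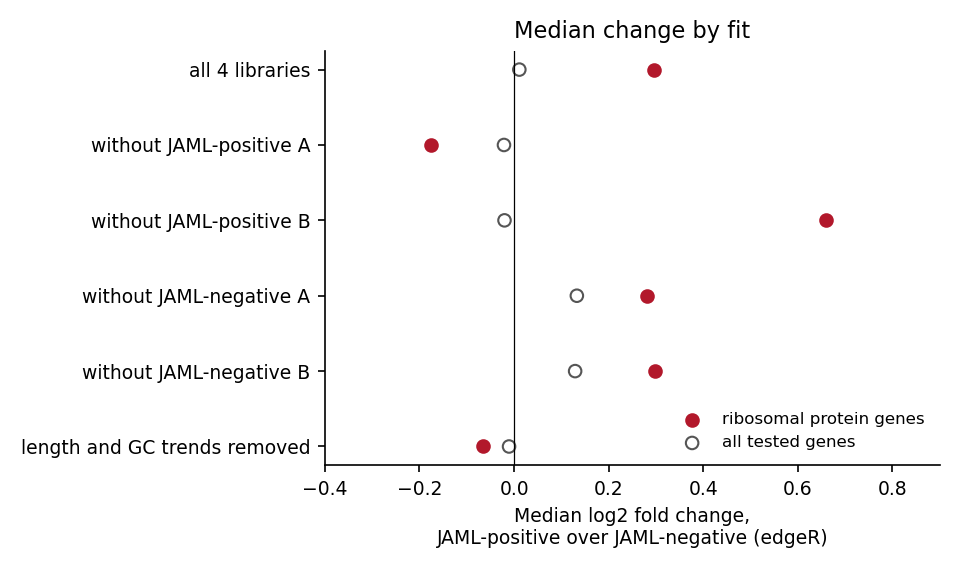
Median log2 fold change of JAML-positive over JAML-negative cells for the 82 ribosomal protein genes (filled) and all tested genes (open) in the fit on all 4 libraries, without each library, and after removal of length and GC trends. The members' median is 0.29 with all libraries, -0.17 without JAML-positive A, 0.66 without JAML-positive B and -0.07 after that removal.

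Markers of other cell types also differed between the libraries. The JAML-positive pair lay wholly above the JAML-negative pair for 5 of 6 genes of dendritic cells and MHC class II and 3 of 6 of B and plasma cells. It did so for 4 of 5 of plasmacytoid dendritic cells, 1 of 5 of macrophages and monocytes and both erythroid genes in the table. Over all tested genes the share was 20.3%. Clec9a, counted among the dendritic cell genes above, had 1 count in JAML-positive A and 1 in JAML-negative A, and did not pass the filter on low counts. Its place above therefore came from library size. Summed over the 6 genes of dendritic cells and MHC class II, the level was 342 and 203 CPM of the total in JAML-positive A and B, against 65.2 and 55.7 CPM in JAML-negative A and B, with Xcr1 at 0 in JAML-positive B and Clec9a at 0 in JAML-negative B. B and plasma cell markers (6 genes) summed to 120.2 and 86.9 CPM, against 10.6 and 18.1 CPM, with Cd79a at 0 in JAML-positive A, Cd79a and Mzb1 at 0 in JAML-negative A, and Ms4a1 and Mzb1 at 0 in JAML-negative B. Plasmacytoid dendritic cell markers (5 genes) summed to 243 and 232 CPM, against 97.5 and 112 CPM, with Ly6d at 0 in both JAML-negative libraries. Macrophage and monocyte markers (5 genes) summed to 176 and 144 CPM, against 69.8 and 66.5 CPM. Mpeg1 held most of that difference, with 113 and 91.7 CPM, against 7.62 and 13.9 CPM. The groups overlapped for Lyz2, Csf1r and Cd68, and Adgre1 was lower in the JAML-positive pair, at 2.89 and 2.58 CPM, against 4.64 and 3.60 CPM. Erythroid markers (Hba-a1 and Hbb-bs) summed to 47.2 and 13.0 CPM, against 0.0 and 0.0363 CPM, with both at 0 in JAML-negative A and Hbb-bs at 0 in JAML-negative B. NK cell markers (3 genes) summed to 124 and 156 CPM, against 148 and 141 CPM, and endothelial markers (3 genes) to 102 and 143 CPM, against 128 and 146 CPM. Hepatocyte markers summed to 13.9 and 15.2 CPM, against 24.3 and 4.21 CPM, with Apoa1 and Ttr at 0 in both JAML-positive libraries. For the first 5 lists the sums were higher in JAML-positive A than in JAML-positive B, as for the ribosomal proteins and the T cell markers (3191 and 2953 CPM). In those 5 lists JAML-positive B lay above both JAML-negative libraries. Its ribosomal protein share (7.71%) lay below theirs (8.62% and 8.52%). The part of these cell types in the members' values was not tested.

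Members differ in how much of their sequence recurs in other annotated transcripts, with a median of 56.1% of 50-base windows and a highest value of 98.6% in Rps27. The 49 members with at least 50% shared windows had a median log2 fold change of 0.31, and the 33 with less had 0.26, so the higher values were found in both classes. Members with a pyrimidine run near the start had a median log2 fold change of 0.29 (36 genes), and those without one 0.30 (25 genes).

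Genes that work with the ribosomal proteins were followed as lists, and none of their genes passed an adjusted p of 0.05 in edgeR, nor did any other tested gene (0.0%). Rack1, a signalling scaffold on the small subunit whose symbol falls outside the rule, had 2081 and 1175 CPM in the JAML-positive libraries, against 1433 and 1566 CPM in the JAML-negative ones, the same order of libraries as most members. Of 20 other transcripts listed as having a TOP motif, 16 had a higher value, against 50.7% of all tested genes. These 20 include Gas5, Snhg1, Snhg8 and Npm1, and Npm1 is also among the ribosome biogenesis factors below. Their median was 0.12 (-0.04 without JAML-positive A and -0.08 after removal of length and GC trends). Their median excess of JAML-positive A over JAML-positive B was 0.34, against 0.86 for the ribosomal proteins. Tpt1, a growth-associated TOP message, had 5112 and 3063 CPM in the JAML-positive libraries, against 3849 and 3808 CPM in the JAML-negative ones. Ribosome biogenesis factors had a higher value for 39 of 60, against 50.7% of all tested genes, with a median of 0.18 (0.05 without JAML-positive A and 0.05 after removal of length and GC trends) and an excess of 0.06 within the JAML-positive pair. The 78 mitochondrial ribosomal proteins, which build the separate ribosome of mitochondria, had 61 higher, against 50.7% of all tested genes, and a median of 0.40. That median was 0.23 without JAML-positive A, 0.63 without JAML-positive B and 0.25 after removal of length and GC trends. Their share of counts was 0.268% and 0.214% in the JAML-positive libraries, against 0.197% and 0.188% in the JAML-negative ones, without overlap (exact two-sided permutation p = 0.3333, the smallest possible here).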

How the data were processed

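RNA sequencing libraries of sorted CD8 T cells, 2 JAML-positive and 2 JAML-negative, were compared. The authors deposited whole-number read counts per gene, with no normalization recorded. Per the submitters' processing notes the genome build was GRCm38, also called mm10. The aligner, counter, annotation, strand setting and handling of multiply matching reads are all not given in the sources used here. Per the labels' protocols, a SMARTER mRNA-Seq kit was used on total RNA.

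Counts were tested with edgeR 4.0.16 (R 4.3.3) over all genes kept by filterByExpr (minimum count 10), with TMM factors, the quasi-likelihood test without covariates and Benjamini-Hochberg adjustment at 0.05. Alternatives used limma 3.58.1 and DESeq2 1.42.0. The fit was tested on simulated data first. Log2 CPM carry a prior count of 2. SE is the absolute log2 fold change over the square root of F. Lengths, GC content and shared 50-base windows come from GENCODE M21 principal transcripts (all 82 members), positions and start windows from RefSeq. Exons of 5 members overlap an opposite-strand gene (Rpl23a, Rpl32, Rps25, Rpl12 and Rpl35), and reads of near-identical copies are uncertain.

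Members, gene lists and tests were chosen with earlier results of these data known. Named genes were the 10 members of smallest p, the 5 with most counts, the 5 largest and 5 smallest differences within the JAML-positive pair at 10 CPM or more, and a list of 27 members of interest (23 in the table). Some items are not reported here.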

Additional observations from a re-analysis of the deposited data

How the results depend on the processing

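No ribosomal protein gene passed an adjusted p of 0.05 in any of the alternatives run. The median log2 fold change of the members (0.29) lay between 0.22 and 0.30 under DESeq2 size factors, TMM factors without the members, library totals, DESeq2, limma-voom, no filter and a filter of 5 CPM, with 78 to 80 genes higher. Leaving out a library gave medians of -0.17 to 0.66 and 12 to 81 genes higher. Removing length and GC trends gave a median of -0.066 and 33 genes higher, fewer genes being tested (10959). The share difference was -0.858 to 3.96 points without single libraries, an alternative added after seeing the data, and 1.63 or 1.68 points with other denominators. With the replicate block the median was 0.24, with 78 genes higher, and it changed no call. Deviations of same-lettered libraries correlated at 0.02 with 2 letters, so the letters are not shown to pair libraries. Scaling to the family total moved the median of all genes to -0.16. Among the 36 named genes, log2 fold changes whose sign turned when a library was left out ranged over -0.059 to 0.99 for Rpl41, -0.030 to 0.32 for Rpl4, -0.28 to 0.54 for Rpsa, -0.021 to 0.55 for Rps3a1, -0.35 to 0.63 for Rpl13a, -0.14 to 0.28 for Rpl3, -0.39 to 0.88 for Rpl36, -0.46 to 0.79 for Rpl37a, -0.36 to 0.87 for Rpl39, -0.28 to 0.93 for Rpl29, -0.53 to 0.66 for Rps21, -0.15 to 0.44 for Rpl7l1, -0.35 to 0.70 for Rpl22, -0.086 to 0.76 for Rpl22l1, -0.17 to 0.92 for Rps27, -0.015 to 0.49 for Rpl7, -0.20 to 0.71 for Rpl36a, -0.12 to 0.54 for Rps4x, -0.080 to 0.60 for Rplp0, -0.32 to 0.83 for Rplp1, -0.51 to 0.58 for Rplp2, -0.20 to 0.49 for Rpl5, -0.35 to 0.66 for Rpl11, -0.12 to 0.83 for Rpl23, -0.22 to 0.48 for Rps6 and -0.48 to 0.67 for Rps19. With length and GC trends removed, those that turned were -0.094 for Rpl4, -0.069 for Rps3a1, -0.14 for Rpl13a, -0.22 for Rpl3, -0.14 for Rpl37a, -0.052 for Rpl39, -0.21 for Rps21, -0.039 for Rpl13, -0.13 for Rpl22, -0.00072 for Rpl22l1, -0.076 for Rpl7, -0.063 for Rpl36a, -0.12 for Rps4x, -0.23 for Rplp2, -0.16 for Rpl11, -0.21 for Rps6 and -0.12 for Rps19. Scaling to the family total lowers the members' values by construction, and the small ones that turned were -0.063 for Rpl4, -0.091 for Rpsa, -0.079 for Rpl13a, -0.15 for Rpl3, -0.044 for Rpl37a, -0.15 for Rps21, -0.068 for Rpl7l1, -0.048 for Rpl22, -0.010 for Rps4x, -0.18 for Rplp2, -0.081 for Rpl5, -0.065 for Rpl11, -0.094 for Rps6 and -0.12 for Rps19. Causes of the other reversals were not tested. With 2 libraries a group and an SE of 0.19 to 2.15, differences of the size seen here were not called.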

Other observations

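Of 15 regulators of TOP messages, 5 had a higher value in that group, against 50.7% of all tested genes, with a median log2 fold change of -0.13 (0.05 without JAML-positive A, -0.25 without JAML-positive B and -0.01 after removal of length and GC trends), and 0 passed an adjusted p of 0.05 or an unadjusted p of 0.05 in edgeR. Rptor, the mTOR partner that recognises substrates, had 21.6 and 40.5 CPM in JAML-positive A and B, against 61.6 and 58.2 CPM in JAML-negative A and B, with a log2 fold change of -0.95 (SE 0.44, with an edgeR adjusted p of 0.745). Myc, a transcription factor that drives ribosome production, had 76.7 and 113 CPM in JAML-positive A and B, against 163 and 141 CPM in JAML-negative A and B, with a log2 fold change of -0.68 (SE 0.28, with an edgeR adjusted p of 0.712). Both genes were lowest in JAML-positive A, and the JAML-positive pair lay wholly below the JAML-negative pair, as for 18.2% of all tested genes. They had the smallest unadjusted p in edgeR among the 15 regulators. Any relation to the ribosomal protein share was not tested. Larp1, which binds TOP messages, had 269 and 312 CPM in the JAML-positive libraries, against 263 and 379 CPM in the JAML-negative ones.

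Among the 60 ribosome biogenesis factors, Dkc1 and Riok2 were chosen after their values were seen. They were the only members of that list with an unadjusted p under 0.05 in edgeR, 1 higher and 1 lower. Of all tested genes, 4.28% were higher and 2.76% lower at that threshold. Dkc1, which converts uridine to pseudouridine in ribosomal RNA, had 146 and 153 CPM in JAML-positive A and B, against 75.6 and 59.2 CPM in JAML-negative A and B. Riok2, a kinase of late small subunit maturation, had 25 and 26.7 CPM in JAML-positive A and B, against 52.0 and 65.4 CPM in JAML-negative A and B. The groups did not overlap for either gene, where 20.3% of all tested genes lay wholly above and 18.2% wholly below. The JAML-positive libraries were close to each other, with log2 fold changes of 1.15 (SE 0.26, with an edgeR adjusted p of 0.704) for Dkc1 and -1.18 (SE 0.38, with an edgeR adjusted p of 0.704) for Riok2. Genes of ribosome quality control had a higher value for 4 of 12, against 50.7% of all tested genes. Their median log2 fold change was -0.09 (0.04 after removal of length and GC trends).

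Rps27rt and Rpl37rt, copies of Rps27 and Rpl37 whose symbols lie outside the rule, varied strongly within groups. Rps27rt had 152 and 71.8 CPM in the JAML-positive libraries, against 52.5 and 88.8 CPM in the JAML-negative ones, and Rpl37rt had 129.7 and 37.8 CPM in the JAML-positive libraries, against 51.9 and 109 CPM in the JAML-negative ones.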
